A study of Mus musculus with 18 samples.

Results

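Cytosolic ribosomal proteins are the protein parts of the ribosomes that translate mRNA in the cytoplasm, and the 80 mouse genes that encode them under a common name were followed in RNA sequencing of female mice that lack Xist. They are every protein-coding gene whose symbol in the GRCm38 annotation is Rpl or Rps with a number and an optional letter, together with Rplp0, Rplp1, Rplp2 and Rpsa, out of 46078 gene identifiers in each deposited table. Of the 80 genes, 49 encode proteins of the large subunit and 31 proteins of the small subunit. Genes of the Rps6 kinases and pseudogenes were left out, as were ribosomal genes with other names, such as Rack1, Fau, Rps3a1 and the retrogene Rps27rt.

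Xist is the noncoding RNA that spreads over one X chromosome in each female cell and shuts down most genes on it. In this series mutants carried a homozygous Xist deletion. Controls carried a heterozygous deletion, so they too had a deleted allele and were not wild type, although the tables name their columns WT. Primary fibroblasts grown from tail tips (TTFs) gave 3 mutant and 3 control libraries, and spleen, liver and brain of postnatal day 1 each gave 2 mutant and 2 control libraries. All mice were female. The sources used here do not give the strain, the deleted segment of Xist, the age of the mice that gave the fibroblasts, or whether organs with the same number came from the same mouse. Values are called signal below, the authors' scaled count per gene, which lies on the scale of CPM, and each tissue's table was normalized on its own.

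A ribosome holds one copy of nearly every ribosomal protein, apart from the paired acidic proteins of its stalk, and cells make these proteins in matched amounts. Most of the mRNAs begin with a C followed by a run of pyrimidines, the 5′ terminal oligopyrimidine (TOP) tract, through which mTORC1 and LARP1 set their translation together, while MYC raises their transcription. Mammalian genomes also hold many processed copies of these genes, made from spliced mRNA, most of them annotated as pseudogenes. Red cell precursors depend on a high output of ribosomes, and loss-of-function mutations in single ribosomal protein genes cause Diamond-Blackfan anaemia in humans.

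The annotated starts of 5 genes that begin with such a tract and of 3 tissue-restricted paralogs that do not are shown for comparison. Each window holds 25 bases before and 20 bases from the annotated start (RefSeq, GRCm38.p6), 5′ to 3′ on the strand of the gene, with a tract that begins at the start in capitals.
Rps6, chr4:86857348-86857392, minus strand: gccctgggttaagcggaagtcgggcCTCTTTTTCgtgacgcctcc
Rpl15, chr14:18270967-18271011, minus strand: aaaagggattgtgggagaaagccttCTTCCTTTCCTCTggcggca
Rpl38, chr11:114668555-114668599, plus strand: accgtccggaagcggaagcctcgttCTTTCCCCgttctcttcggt
Rpl28, chr7:4792940-4792984, plus strand: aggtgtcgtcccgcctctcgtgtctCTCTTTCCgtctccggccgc
Rps10, chr17:27635225-27635269, minus strand: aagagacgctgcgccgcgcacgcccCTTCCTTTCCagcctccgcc
Rpl3l, chr17:24727801-24727845, plus strand: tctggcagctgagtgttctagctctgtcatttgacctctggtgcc
Rpl10l, chr12:66284382-66284426, minus strand: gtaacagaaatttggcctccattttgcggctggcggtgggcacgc
Rpl39l, chr16:10170203-10170247, plus strand: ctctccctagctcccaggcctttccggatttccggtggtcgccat
A tract, searched on the gene's strand as C followed by at least 4 bases that are each C or T, began exactly at an annotated start in 13 of the 60 members found in the RefSeq table (21.7%), against 813 of all 27025 genes there (3.01%). Within the 50 bases after the start, it was present in 54 of the 60 members (90%) and in 14999 of all genes (55.5%). The Rpl3l window holds such a match further in, after its start. A match describes these letters and does not show that the tract was used.

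The members lie on 19 chromosomes, and 4 are X-linked (Rpl10, Rpl36a, Rpl39 and Rps4x). Their coding sequences have a median of 454.5 bases, with 75 bases in the shortest, Rpl41. Within the bounds of 29 members lie 56 annotated snoRNA genes on the same strand. Near-identical copies, here other transcribed loci in the annotation with at least 95% identity to the coding sequence, numbered 498, and 74 of the 80 members had at least one. Rpl21 had the most copies (49), the median was 4.5, and 6 members had none, Rps9, Rps21 and Rps27l among them. Over the members, a median of 87.7% of all 50-base windows of the coding sequence, the length of the reads, also occurred unchanged in a copy.

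How alike gene and copy are is shown by 2 pairs, each across an exon junction of the gene, where a spliced read of the gene has to be split on the genome and a read of the copy does not. Rpl24 (large subunit, chr16:55966275-55971435, plus strand, GRCm38) and its copy Gm9385 (chr9:116040593-116041064, minus strand) are 99.8% identical, and Rps4x (small subunit, chrX:102184941-102189394, minus strand) and its copy Rps4x-ps (chr5:3875362-3876154, plus strand) are 97.7% identical. Bases 300 to 359 of the Rpl24 coding sequence, with the junction after base 329, and bases 233 to 292 of Rps4x, with the junction after base 262, are given 5′ to 3′, with the bases that differ in capitals.
Rpl24: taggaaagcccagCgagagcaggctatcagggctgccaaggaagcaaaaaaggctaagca
Gm9385: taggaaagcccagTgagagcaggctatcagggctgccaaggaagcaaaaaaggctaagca
Rps4x: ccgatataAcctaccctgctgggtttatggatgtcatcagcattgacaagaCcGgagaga
Rps4x-ps: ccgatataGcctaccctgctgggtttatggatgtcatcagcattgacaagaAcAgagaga
For Rpl24, 100% of 50-base windows recur in a copy, and for Rps4x 64.2% do. Levels of members with copies are therefore uncertain wherever counting could place a read at either locus, and are given below with and without the copies.

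Library depth, in reads in genes, was 18.5 M to 23.3 M in TTFs, 12.4 M to 18.9 M in spleen, 15.8 M to 29.2 M in liver and 15.3 M to 23.1 M in brain. In each tissue every mutant library had less Xist than every control library, and the mutant mean was 8.66% of the control mean in TTFs, 7.22% in spleen, 32.8% in liver and 0.576% in brain. Hepatocyte, neuron and fibroblast markers were high in liver, brain and TTFs, and erythroid, neutrophil and lymphocyte markers were present in spleen. Spleen mutant 1 stood apart, with reads in 32381 genes against 25166 to 26940 in the other spleens. Pancreas markers summed to 5902 in spleen mutant 2 and 701 in spleen control 1, but to 11.9 in spleen mutant 1 and 9.12 in spleen control 2.

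Ribosomal protein genes took the largest share of reads in fibroblasts. They held 2.94%, 3.79% and 3.20% of reads in genes in mutant TTFs 1 to 3 and 3.28%, 3.07% and 3.04% in control TTFs 1 to 3. Spleen gave 0.624% and 0.766% in mutants and 0.936% and 0.683% in controls. Liver gave 0.481% and 0.543% in mutants and 0.512% and 0.499% in controls, and brain 0.312% and 0.341% in mutants and 0.330% and 0.313% in controls. Mutant and control ranges overlapped in all 4 tissues, while every TTF library lay above every organ library. TTFs were deposited under a different library prefix from that shared by the organs, and the sources used here do not explain these prefixes. Levels in TTFs and organs, here and below, therefore cannot tell cell source from library set. Small-subunit genes summed to 0.697 to 0.714 of the large-subunit sum in mutant TTFs and to 0.692 to 0.702 of it in control TTFs.

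**Figure D1:**
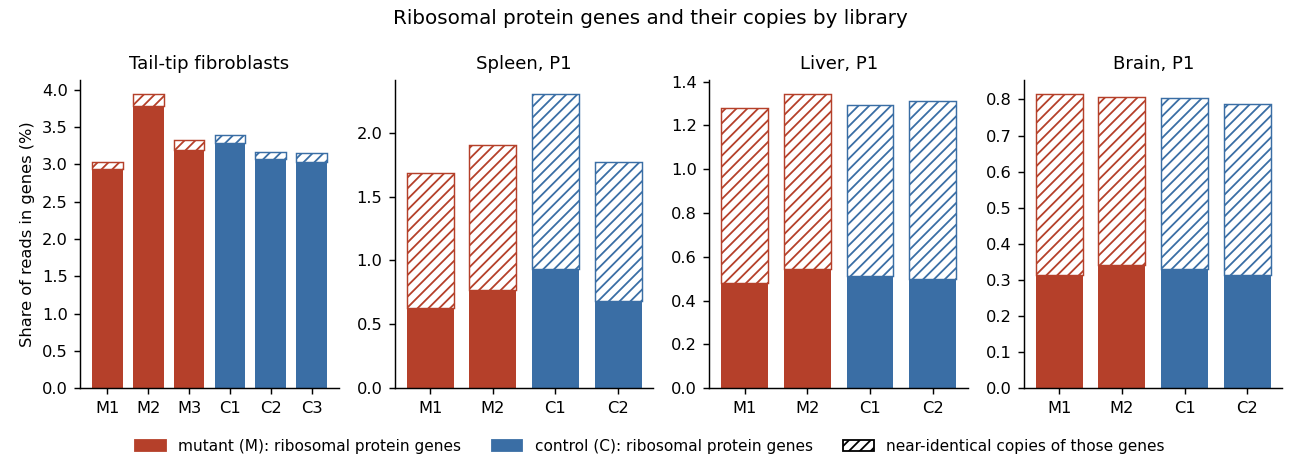
Share of reads in genes (%) taken by the 80 ribosomal protein genes and by their near-identical copies, stacked, for each library of the 4 tissues, mutants left of controls. Members dominate the bars in fibroblasts (2.94% to 3.79%), whereas in spleen, liver and brain the copies take more reads than the members do.

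With copies added, the gap between fibroblasts and organs narrowed. In TTFs the copies' reads amounted to 3.16%, 3.98% and 4.03% of the members' reads in mutants and 3.29%, 3.14% and 3.88% in controls. In organs they exceeded the members' reads in every library, at 171% and 149% in mutant and 146% and 159% in control spleens, 166% and 147% in mutant and 153% and 163% in control livers, and, for brain, 161% and 137% in mutant and 144% and 152% in control brains. The copies stood above their own member for 1 of 74 members in TTFs (Rpl24), 56 in spleen, 56 in liver and 51 in brain. For the 76 members with a TTF mean of at least 5, TTFs held 4.28, 6.33 and 9.94 times the share of reads of spleen, liver and brain. With the copies of these 76 added, the ratios were 1.76, 2.58 and 4.20. Rpl24 is not among the 76. For the 6 members without a copy, the summed share in TTFs was 1.32, 1.94 and 3.43 times that in spleen, liver and brain.

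Single members show how this played out, with signal from separately normalized tables set side by side and ratios taken from shares of reads. Rps29, a small-subunit protein, had 104, 115 and 88.6 signal in mutant TTFs and 113, 93.1 and 97.3 in control TTFs, but 0.571 and 0.755 in mutant livers and 0.191 and 1.17 in control livers. Rps29 with its 5 copies read 72.9 and 95.7 in mutant livers and 104 and 91.4 in control livers. Its share of reads in TTFs was 152 times that in liver for the gene alone and 1.12 times with copies. Rps27 had 308, 403 and 330 in mutant TTFs and 327, 320 and 333 in control TTFs, and 3.81 and 4.01 in mutant brains and 4.04 and 5.23 in control brains, with a share in TTFs 79.0 times that in brain alone and 4.56 times with copies. The retrogene Rps27rt had 6.31, 11.4 and 7.21 in mutant and 7.68, 6.68 and 7.70 in control TTFs, and 70.7 and 74.8 in mutant and 67.8 and 72.7 in control brains. Rpl24 itself was near 1 signal or less in every library, with 0.974, 1.13 and 1.09 in mutant and 1.35, 0.897 and 1.34 in control TTFs. With Gm9385 and its other copy, Rpl24 read 137 and 161 in mutant and 138 and 151 in control livers. In TTFs its share of reads was 0.00011% alone and still only 0.0020% with copies. Rpl24 also overlaps the annotated gene Gm28037 on the same strand, and the part of that overlap in its low signal was not tested.

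Members with little or no copied sequence were not alike. Rpl8, a large-subunit protein of which 8.73% of windows recur in a copy, had 598, 664 and 617 in mutant TTFs and 613, 594 and 591 in control TTFs, and 519 and 531 in mutant livers and 490 and 517 in control livers. Its share of reads in TTFs was 0.749, 1.19 and 2.13 times that in spleen, liver and brain. Rps9, a small-subunit protein without a copy, had 580, 612 and 550 in mutant and 557, 552 and 570 in control TTFs, and 267 and 252 in mutant and 251 and 252 in control livers, with a share in TTFs 1.37, 2.24 and 4.30 times that in spleen, liver and brain. Rps21 and Rps27l, which also have no copy, had shares of reads in TTFs 6.60 and 10.5 times those in spleen. Rplp2, with 9.80% of windows in a copy, had a share in TTFs 17.3, 26.8 and 31.5 times that in spleen, liver and brain. Over the 76 members with a TTF mean of at least 5, Spearman's rho between the percentage of windows found in a copy and the log2 ratio of organ to TTF share was -0.70 in spleen, -0.69 in liver and -0.58 in brain. The points share the libraries, and coding length and base composition were not held constant, so this is a description. The sources used here do not say how reads that match several loci were counted, and the part of counting in these organ levels was not tested.

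**Figure D2:**
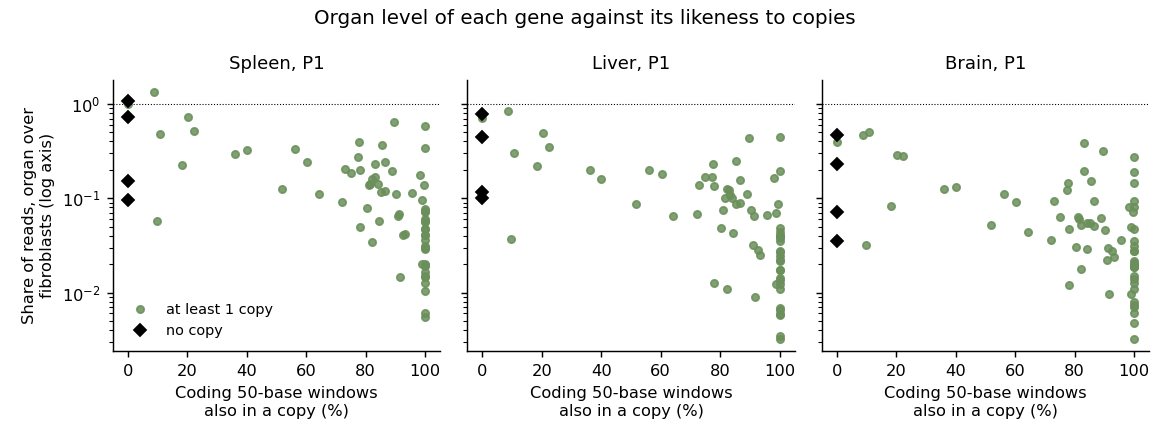
Share of reads in each organ divided by that in TTFs (log axis) against the percentage of 50-base coding windows that also occur in a copy, 1 point per member, with members that have no copy as black diamonds. Points slope downwards in spleen, liver and brain, with Spearman's rho of -0.70, -0.69 and -0.58, and Rpl8 sits near the top.

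Per kilobase of exon, the highest members in TTFs were Rplp1 and Rplp0 of the stalk, then Rpl23a, Rps15 and Rpl41, with mean signal per kb of 2273, 844, 779, 764 and 749. Rpl8 and Rplp1 led in spleen (612 and 568 per kb) and Rplp1 and Rpl8 in liver (415 and 378 per kb). In brain Rps15, Rpl8, Rpl41 and Rplp1 were within 206 to 213 per kb. The length is the union of all annotated exons of a gene. It is 1168 bases for Rpl41, whose transcript chosen for its coding sequence has 437, while both lengths are 499 for Rplp1. The order of members per kb can therefore depend on the length used. The lowest tested members per kb were Rpl30, Rpl39l and Rpl24 in TTFs and Rps13 with Rps28, Rpl36a, Rpl37, Rps23 or Rpl17 in the organs. Rpl3l and Rpl10l, paralogs known from striated muscle and testis, averaged under 1 signal in every tissue, and so did Rpl39l and Rpl24 in the 3 organs and Rps29 in liver. This left 78 members for testing in TTFs, 76 in spleen, 75 in liver and 76 in brain.

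In mutant fibroblasts, ribosomal protein genes stood near control level. The 80 genes summed to 31786, 36000 and 31260 signal in mutants and 31715, 30895 and 30802 in controls, a ratio of 1.06. Mutant 2 was the high library, and mutants 1 and 3 lay close to control 1. Of 78 tested members, 69 had a log2 fold change above 0, with a median of 0.07 against -0.00 for all 13077 tested genes. The 78 fold changes lay between -0.25 and 0.21. By limma with Benjamini-Hochberg adjustment over all tested genes, 0 members passed 0.05, where the share of all genes called was 0.0%, and 0 members reached an unadjusted p under 0.05, where 0.971% of all genes did. The same limma fit did not call Xist itself in TTFs (log2 fold change -3.70, adjusted p = 0.9997). Nor did it in spleen (-3.90, adjusted p = 0.136) or liver (-1.62, adjusted p = 0.454), but it did in brain (-7.27, adjusted p = 1.50e-08). A count of 0 members called by limma therefore does not show that levels were equal. DESeq2 and edgeR on recovered reads also called 0 members, and 0.00714% and 0.0% of all genes. In 6 members, each mutant library lay above each control library (Rpl17, Rpl19, Rps3, Rps14, Rps24 and Rps26), with 2.07% of all genes doing so, and 0 members lay apart in the other direction, with 1.65% of all genes.

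The fibroblast shift rested on mutant 2. The median of members in single libraries, relative to the control mean, was 0.00, 0.20 and 0.00 in mutants 1 to 3 and 0.03, -0.04 and 0.01 in controls 1 to 3. Without mutant 2 the median log2 fold change of members was 0.01. Rps24, a small-subunit protein mutated in some cases of Diamond-Blackfan anaemia, had 641, 714 and 640 in mutants and 621, 580 and 584 in controls (log2 fold change 0.16, SE 0.11). Mutant 2 also had the lowest sum of p53 target genes, with 2299, 770 and 1922 in mutants 1 to 3 and 1151, 1906 and 3165 in controls 1 to 3, and the highest sum of proliferation markers, with 422, 882 and 641 in mutants and 719, 659 and 467 in controls. The part of these differences in the members' levels was not tested.

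**Figure D3:**
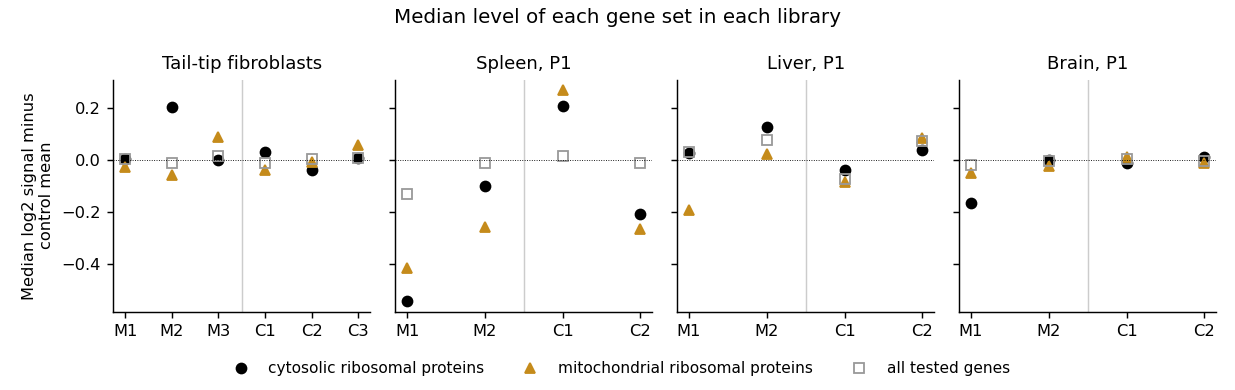
Median log2 level of cytosolic ribosomal protein genes, mitochondrial ribosomal protein genes and all tested genes in each library, relative to the mean of the controls of that tissue, mutants (M) left of controls (C). TTF mutant 2 (0.20) and spleen mutant 1 (-0.54) stand off from the other mutants of their tissue.

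In spleen, ribosomal protein genes were lower in mutants on average, with overlapping libraries. The summed signal was 5786 and 7760 in mutants and 10453 and 6477 in controls, a ratio of 0.80. Control 1 was the high library and mutant 2 lay above control 2. Of 76 tested members, 70 had a log2 fold change below 0 and 6 above, and the median was -0.29 against -0.07 for all tested genes. Both mutants lay below both controls in 23 members, where 21.9% of all genes did, and above both in 0, where 18.3% of all genes did. With copies added, both mutants lay below both controls in 7 of 77 members, and 0 had an unadjusted limma p under 0.05. No member passed by limma (0.0% of all genes), DESeq2 (0.915%) or edgeR (0.0%), and 2 members had an unadjusted limma p under 0.05, both with mutants lower, where 6.27% of all genes had such a p and 1.57% with mutants lower. Library medians were -0.54 and -0.10 in mutants and 0.21 and -0.21 in controls, and the median log2 fold change was -0.09 without control 1, -0.10 without mutant 1, -0.51 without control 2 and -0.54 without mutant 2.

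The 2 members with a small p in spleen were large-subunit genes. Rpl3, which lies at the peptidyl transferase centre, had 43.8 and 37.5 in mutants and 108 and 71.3 in controls (log2 fold change -1.10, SE 0.31, limma adjusted p = 0.616). With its copies Rpl3 read 303 and 353 in mutants and 536 and 326 in controls (log2 fold change -0.35), so that the groups overlapped. Rpl35a had 10.4 and 12.8 in mutants and 56.3 and 16.5 in controls (log2 fold change -1.36, SE 0.55, limma adjusted p = 0.779), with control 1 far above the rest. Rpl37a read 3.76 and 41.0 in mutants and 5.03 and 4.53 in controls, and passed without mutant 1 (2.98 on the log2 scale, limma adjusted p = 8.08e-05), while its log2 fold change in all libraries was 1.33 alone and 0.28 with copies. Summed with copies it read 45.7 and 97.3 in mutants and 59.6 and 50.5 in controls. Rpl9, another member with separate groups, had 7.21 and 11 in mutants and 15.0 and 14 in controls.

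Some other gene groups were also lower in mutant spleens, and others were higher. Erythroid markers summed to 18337 and 22873 in mutants and 44418 and 21654 in controls, with 0 of 11 measured markers above 0, a median log2 fold change of -1.13 and no marker at 0 signal in every library. Proliferation markers summed to 2788 and 2495 in mutants and 8810 and 3115 in controls, with 0 of 8 above 0. Control 1 was the high library in both lists, as in the members. Neutrophil markers summed to 3445 and 7633 in mutants and 3566 and 11128 in controls, with 0 of 7 above 0. Lymphocyte markers summed to 103 and 179 in mutants and 108 and 395 in controls, with 1 of 5 above 0. For neutrophil and lymphocyte markers control 2 was the high library. Of 5 macrophage markers, 2 lay above 0. Fibroblast markers summed to 4747 and 2893 in mutants and 1761 and 2082 in controls, with 6 of 6 above 0. Endothelial markers summed to 999 and 709 in mutants and 463 and 642 in controls, with 4 of 4 above 0. Mitochondrial ribosomal protein genes had a median of -0.35, with 3 of 77 above 0. Fewer cells of a type and less RNA per cell cannot be told apart in such bulk samples, and the part of these lists in the members' levels was not tested.

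In liver, the family as a whole was level. The members summed to 4858 and 5427 in mutants and 5130 and 4908 in controls, a ratio of 1.02. The median log2 fold change was 0.07 over 75 tested members, of which 47 lay above 0, and 0.05 over all genes. Both mutants lay above both controls in 23 members, where 23.5% of all genes did, and below both in 4, where 13.1% of all genes did. With copies added these counts were 15 and 6 of 77 members. By limma 0 members were called (0.0% of all genes) and 3 had an unadjusted p under 0.05, each with mutants higher, where 6.67% of all genes had such a p and 4.39% with mutants higher. DESeq2 called 1 member, Rpl35a, where it called 1.05% of all genes, and edgeR called 0 (0.0% of all genes). Library medians were 0.03 and 0.13 in mutants and -0.04 and 0.04 in controls, and the median log2 fold change was 0.03 without mutant 2, 0.04 without control 1, 0.10 without control 2 and 0.13 without mutant 1.

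The 3 liver members with the smallest p were large-subunit genes. Rpl35a, a gene mutated in some cases of Diamond-Blackfan anaemia, had 27.9 and 27.8 in mutants and 8.08 and 7.96 in controls (log2 fold change 1.73, SE 0.20), and the mutants lay above the controls with almost no spread within either group. The adjusted p was 0.240 by limma, 0.261 by edgeR and 0.000474 by DESeq2, and over 15 settings the log2 fold change ranged from 1.55 to 1.78. With its 14 copies it read 29.3 and 30.0 in mutants and 9.54 and 10.1 in controls. Rpl34 had 23.5 and 15.3 in mutants and 9.41 and 7.60 in controls (log2 fold change 1.12, SE 0.29, limma adjusted p = 0.635). With copies it read 41.3 and 39.7 in mutants and 26 and 42.1 in controls. Rpl12, of the stalk base, had 29.6 and 26.8 in mutants and 16.0 and 16.6 in controls (log2 fold change 0.77, SE 0.20, limma adjusted p = 0.641). Summed with its copies it read 278 and 225 in mutants and 243 and 240 in controls. Adding copies thus brought overlap for Rpl34 and Rpl12 but not for Rpl35a.

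In fibroblasts and brain, mutant and control libraries of Rpl35a overlapped. It had 138, 151 and 137 in mutant TTFs and 147, 139 and 147 in control TTFs, and 5.68 and 8.51 in mutant brains and 8.63 and 7.03 in control brains. Its liver response minus its TTF response was 1.76 on the log2 scale (SE 0.16, limma adjusted p = 0.0116), and it was the only member called in any of the 6 pairs of tissues compared, where 0.0339% of all genes were called in that pair. In the other pairs 0 members were called by limma, with 0.0446% of all genes called in brain minus liver, 0.00687% in brain minus spleen, 0.0163% in brain minus TTF, 0.0139% in liver minus spleen and 0.0% in spleen minus TTF. It was not called without liver control 1, liver mutant 1 or 2, TTF control 1, 2 or 3, or TTF mutant 3, nor with a replicate block. The liver minus spleen difference of 3.10 (SE 0.70, adjusted p = 0.776 by limma) and the brain minus liver difference of -1.89 (SE 0.32, adjusted p = 0.279 by limma) did not pass. Rpl35a overlaps the antisense gene Gm17106. The sources used here do not say whether counting was stranded, so the reads of this overlapping pair cannot be told apart. Such overlap is not particular to Rpl35a. Among other members named here, Rpl3 overlaps Syngr1, Rpl12 overlaps Lrsam1 and Rps14 overlaps Ndst1.

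**Figure D4:**
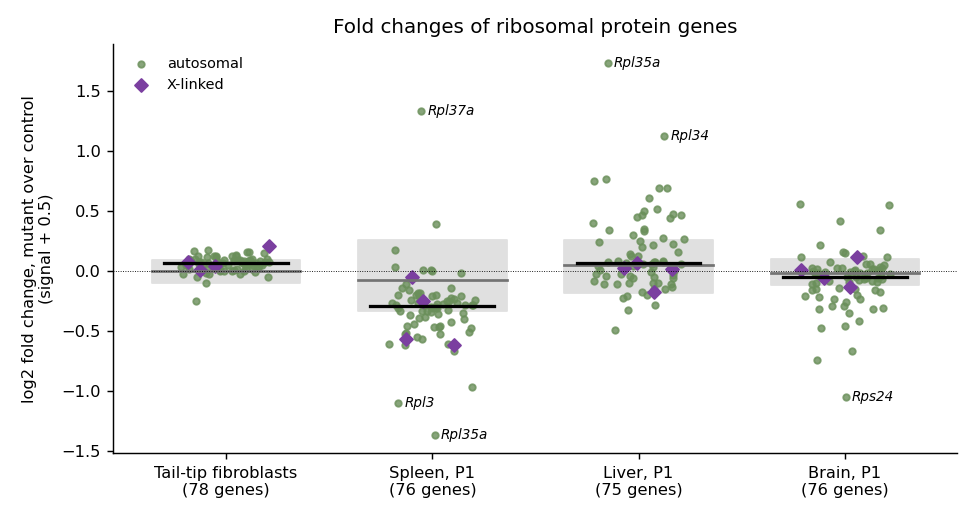
Log2 fold change, mutant over control, of each tested ribosomal protein gene in the 4 tissues, with X-linked members as diamonds, the members' median as a black line, and the quartiles and median of all tested genes in grey. Members lie between -0.25 and 0.21 in TTFs, and the outlying point in liver is Rpl35a at 1.73.

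In brain, where Xist was lowest relative to controls, ribosomal protein genes were level. The members summed to 3084 and 3399 in mutants and 3371 and 3090 in controls, a ratio of 1.00. Mutants and controls each had a higher and a lower library. The median log2 fold change was -0.05, with 27 of 76 members above 0, against -0.01 for all genes. Both mutants lay above both controls in 7 members, where 13.8% of all genes did, and below both in 14, where 16.3% of all genes did. With copies added these counts were 7 and 7 of 77 members. No member passed by limma (0.0237% of all genes), DESeq2 (0.214%) or edgeR (0.0211%), and 3 had an unadjusted limma p under 0.05, where 4.07% of all genes did. Library medians were -0.17 and -0.00 in mutants and -0.01 and 0.01 in controls, so the median log2 fold change was -0.17 without mutant 2 and -0.00 without mutant 1.

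Several differences of single members in brain were smaller or of opposite sign with copies added. Rps24 had 16.7 and 14 in mutants and 76.1 and 13.3 in controls, with copies 181 and 128 in mutants and 181 and 126 in controls. Without control 2, Rps24 alone passed (log2 fold change -2.28, limma adjusted p = 6.06e-05), and without mutant 1, Rpsa did (1.01, limma adjusted p = 0.0224). Rpsa, the laminin receptor relative in the small subunit, had 54.3 and 101 in mutants and 47.6 and 52.6 in controls, with copies 274 and 279 in mutants and 260 and 251 in controls. Rpl3 had 20.2 and 11.5 in mutants and 21.8 and 27.3 in controls, with copies 157 and 147 in mutants and 163 and 163 in controls. Rps6, the substrate of S6 kinase, had 6.01 and 4.68 in mutants and 6.94 and 6.90 in controls, but 129 and 112 in mutants and 83.2 and 110 in controls with copies. By contrast Rpl8, with few copied windows, had 291 and 291 in mutants and 281 and 290 in controls.

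The median log2 fold change of the 4 X-linked members was 0.06 in TTFs, -0.41 in spleen, 0.02 in liver and -0.03 in brain, and that of autosomal members was 0.07, -0.29, 0.07 and -0.05 in the same order. Rps4x, which is subject to X inactivation in mice while its human counterpart escapes it, had 562, 695 and 537 in mutant TTFs and 553, 495 and 495 in control TTFs (log2 fold change 0.21, SE 0.14). In brain it had 23.5 and 26.9 in mutants and 22.5 and 23.9 in controls, and 103 and 98.1 in mutants and 87.4 and 75.7 in controls with copies. Mutant and control libraries of Rps4x overlapped in all 4 tissues for the gene alone. In brain the family sum of Rps4x was higher in both mutants, a sum that includes autosomal copies.

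Of the other X-linked members, Rpl10, which is needed for joining the subunits, had 311, 398 and 286 in mutant TTFs and 335, 298 and 305 in control TTFs, and 5.30 and 6.15 in mutant brains and 6.12 and 6.52 in control brains. Rpl36a had 116, 149 and 108 in mutant TTFs and 132, 113 and 115 in control TTFs. Rpl39, which lines the exit tunnel, had 129, 168 and 128 in mutant TTFs and 147, 133 and 140 in control TTFs. For each of the 4 genes, TTF mutant 2 was the highest of the 6 libraries, and without it their median was -0.08. The X-linked median in liver was -0.083 without mutant 2 and -0.04 without control 2, and in brain it was 0.19 without mutant 1 and -0.20 without mutant 2. Its sign also depended on the setting, with -0.03 by DESeq2 and by edgeR and -0.02 with median-of-ratios scaling and with copies added in liver, and 0.0037 by edgeR and 0.09 with copies added in brain. X-linked members made up 3.52%, 3.92% and 3.39% of the members' signal in mutant TTFs and 3.68%, 3.36% and 3.42% in control TTFs.

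The stalk gene Rplp0 and Rpl29 varied more between libraries of a genotype than between genotypes. Rpl29, of the large subunit, had 1.35 and 79.3 in mutant spleens and 101 and 0.954 in control spleens, 1.38 and 63.3 in mutant livers and 48.9 and 0.683 in control livers. Brain gave 0.969 and 40.7 in mutants and 40.9 and 1.12 in controls. In each organ, mutant 2 and control 1 were high and mutant 1 and control 2 low. With its 25 copies Rpl29 still showed that order, with 16.6 and 52.6 in mutant brains and 54.1 and 14.2 in control brains. Leaving out spleen mutant 1 made its spleen log2 fold change 2.71 (limma adjusted p = 0.000302), and leaving out mutant 2 made it -2.72 (limma adjusted p = 0.00139). TTFs had 108, 53.2 and 48.3 in mutants and 61.6, 47.0 and 82.5 in controls. The acidic stalk protein gene Rplp1 had the same order, with 128 and 375 in mutant and 462 and 169 in control spleens, 129 and 252 in mutant and 296 and 150 in control livers. In brain it had 64.8 and 141 in mutants and 128 and 78.0 in controls.

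Rplp0, the stalk's anchor, shared that order too. It had 120 and 191 in mutant brains and 186 and 121 in control brains, and with copies 396 and 447 in mutants and 408 and 421 in controls. The highest library was thus 1.59 times the lowest among mutant brains for the gene and 1.13 times with copies. Rplp2, the partner of Rplp1, showed smaller gaps, with 5.43 and 8.87 in mutant and 6.34 and 6.13 in control brains. Rpl29, Rplp0 and Rplp1 were set apart from the rest here after their values were seen, Rplp0 and Rplp1 being among the genes named by rule. The order was not particular to them, since the summed signal of all 80 members had it in each organ. For brain this sum was 3399 in mutant 2 and 3371 in control 1, against 3084 in mutant 1 and 3090 in control 2. Relative to the members' reads, the copies' reads were lower in mutant 2 and control 1 of each organ. How far Rpl29, Rplp0 and Rplp1 carry the order of the sum was not tested.

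**Figure D5:**
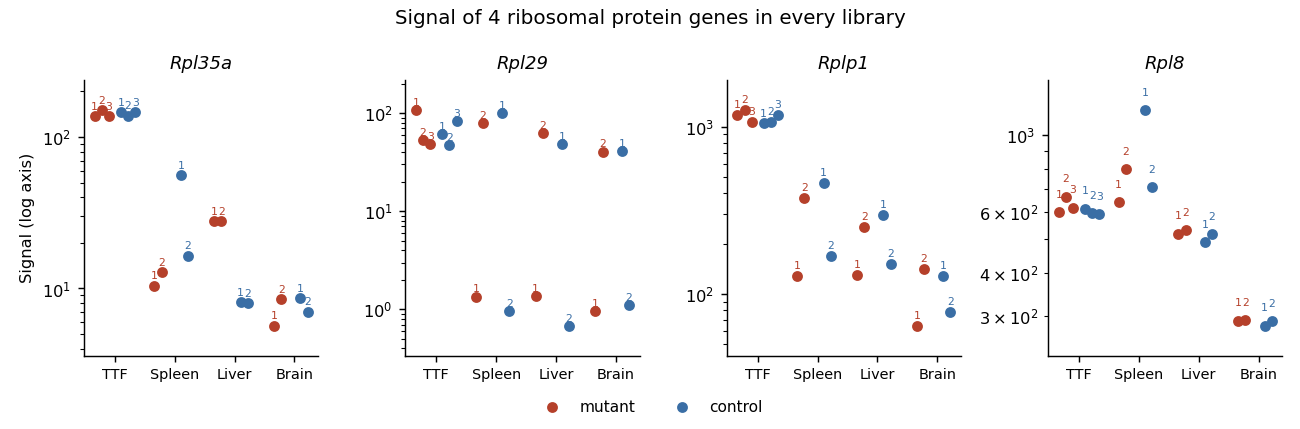
Signal (log axis) of Rpl35a, Rpl29, Rplp1 and Rpl8 in every library, mutants left of controls in each tissue, with the replicate number above each point. Rpl35a separates by genotype in liver (27.9 and 27.8 against 8.08 and 7.96), in the organs mutant 2 and control 1 lie above mutant 1 and control 2 for Rpl29 and Rplp1, and Rpl8 differs little between genotypes in liver and brain.

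Partner genes of the pathway gave the following picture. Among 7 further ribosome genes with other names, 5 lay above 0 in TTFs, 0 in spleen, 4 in liver and 3 in brain. Rack1, a small-subunit scaffold, had 364 and 373 in mutant and 350 and 342 in control brains. Of 19 translation factors and other genes with TOP mRNAs, 13 lay above 0 in TTFs, 3 in spleen, 16 in liver and 8 in brain, with medians of 0.03, -0.20, 0.14 and -0.01. Of 77, 77, 77 and 76 tested mitochondrial ribosomal protein genes, which serve the separate ribosome of mitochondria, 42, 3, 22 and 28 lay above 0 in TTFs, spleen, liver and brain. By limma 0 genes of these lists were called, with 1 unadjusted p under 0.05 (a mitochondrial gene in liver), and DESeq2 also called 0.

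Ribosome assembly factors were mostly higher in mutant livers, although none passed alone. Of 30 tested nucleolar factors, 29 lay above 0 in liver with a median of 0.53, against 8 in TTFs (-0.06), 1 in spleen (-0.30) and 15 in brain (0.00). Some lists of cell type markers also lay mostly above 0 there, with 10 of 11 erythroid (median 0.41), 6 of 6 fibroblast (0.44) and 4 of 4 endothelial markers (0.26). Other lists did not, with 2 of 10 hepatocyte (-0.05), 2 of 5 macrophage (-0.20) and 2 of 4 lymphocyte markers (-0.02) above 0. The same held for 4 of 8 proliferation (-0.02) and 4 of 7 neutrophil markers (0.02). Erythroid markers summed to 30593 and 13297 in mutant and 24657 and 8045 in control livers, fibroblast markers to 628 and 538 in mutant and 386 and 464 in control livers, and endothelial markers to 340 and 341 in mutant and 242 and 313 in control livers, with no marker of these lists at 0 in every library. Their part in the result was not tested. Nop56, a core protein of box C/D snoRNPs, had 89.0 and 63.1 in mutant livers and 56.7 and 44.3 in control livers. The X-linked factor Utp14a had 64.3 and 48.3 in mutant and 27.2 and 24.0 in control livers, 88.5 and 101 in mutant and 76.2 and 52.5 in control spleens. In brain Utp14a had 42.1 and 37.4 in mutants and 30.4 and 23.1 in controls. Mutants lay above controls in each of these organs. Myc had 169 and 103 in mutant livers and 56.7 and 63.8 in control livers (log2 fold change 1.12, limma adjusted p = 0.646). No nucleolar factor and no regulator was called by limma or DESeq2, and 10 of the 30 nucleolar factors had an unadjusted limma p under 0.05 in liver, where 6.67% of all genes did.

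Among 15 p53 targets, which are induced when ribosome assembly fails and by other stresses, 14 were tested in liver and 11 lay above 0 with a median of 0.29, while 5 of 13 did in spleen (median -0.05), 6 of 13 in brain (median -0.08) and 2 of 14 in TTFs (median -0.35). DESeq2 called 3 of them in liver and 2 in spleen, all with mutants higher, and limma called 0, with 5 and 2 unadjusted p under 0.05. Over all genes DESeq2 called 1.05% in liver and 0.915% in spleen, and 6.67% and 6.27% had an unadjusted limma p under 0.05. Cdkn1a, the cell cycle inhibitor p21, had 106 and 48.0 in mutant and 24.4 and 18.6 in control livers (DESeq2 adjusted p = 0.0107), and 34.6 and 18.5 in mutant and 7.10 and 7.34 in control spleens (DESeq2 adjusted p = 0.00663). Trp53inp1 had 453 and 154 in mutant and 32.1 and 37.1 in control livers. Rps27l, the p53-responsive paralog of Rps27, did not share this direction, with 6.71 and 7.93 in mutant and 8.84 and 9.73 in control livers. In brain 6 of 13 tested targets lay above 0.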

How the data were processed

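The deposited values, called signal, are the authors' scaled counts, 1 table per tissue. Counting with HTSeq 0.6.1 and scaling with edgeR, on GRCm38, are given per the submitters' processing notes. Per the labels' protocols, Trizol total RNA was depleted of rRNA and read at 50 nt. The sources used here do not give the aligner, annotation release, strand setting or treatment of multiply matching reads. The design text names heart where the samples are brain, and the samples were followed. In each column 100% of values were whole multiples of 1 read at a tolerance of 0.05, and 3 reads, the limit a count of 0 allows, equal 0.103 to 0.225 signal; such limits cover counting error only.

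Identifiers were matched to GENCODE mouse release M21 (45229 matched, 849 not). For genes averaging at least 1 in a table, log2(signal + 0.5) was fitted per tissue with limma 3.58.1 (R 4.3.3; trend, two-sided, Benjamini-Hochberg over all genes, 0.05), so fold changes of low genes are understated. The unit is not a raw count, so limma replaced the count test; DESeq2 1.42.0 and edgeR 4.0.16 on recovered reads were alternatives. Fits were tested on simulated data. Copies were found with BLAST 2.17.0 (at least 95% identity over at least 100 bases or 90% of the coding sequence). Ratios between tissues were taken from shares of reads. P-values measure the spread between these libraries. Members and lists were chosen with earlier results of these data known. Genes named are X-linked members, members called by any test, the 3 highest and 3 lowest separated fold changes with a mean of at least 5, the 5 highest and 3 lowest per kb, members under 1, the stalk and Rpsa, and up to 3 genes per other list by p; the rest were chosen after their values were seen. Some items are not reported here.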

Additional observations from a re-analysis of the deposited data

Results flagged for a closer look

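The response of Rpl35a differed between tissues by the interaction term fitted with limma. Its log2 fold change in liver exceeded that in fibroblasts by 1.76 (SE 0.16, adjusted p = 0.0116), with 2 of 2 liver mutants above both liver controls and mutant and control fibroblasts overlapping. It was not called with a replicate block in that test, nor without any one of 7 of the 10 libraries. Its overlap with Gm17106 was not tested as a source of the reads.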

How the results depend on the processing

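Of the values that answer a comparison, 279 recomputed under other settings kept direction and side of the threshold or moved little, and 23 moved. Members called were 1 in spleen (lower) and 1 in liver (higher) with a replicate block, 1 in liver by DESeq2, and 0 to 2 in spleen and 0 to 1 in brain with a library left out, the lone library then being assumed to vary like the others. The X-linked median was -0.17 in spleen with copies added, and with a library left out it ranged from -0.083 to 0.056 in liver and from -0.20 to 0.19 in brain. The members' median in brain ranged from -0.17 to -0.00087 in the same way. Members with a called difference between tissues numbered 0 with the block for liver minus TTF and, with a library left out, 0 to 1 there, 0 to 1 for brain minus spleen and for brain minus TTF, and 0 to 3 for spleen minus TTF. The sign of Rpl29 in spleen reversed to 2.71 without mutant 1, and its values with a library left out ranged from -3.07 to 3.06. The labels do not say that a number marks a shared litter or day, and the numbers were not taken as pairs, with correlations of same-numbered deviations of -0.08, 0.43 and 0.02 in TTFs, -0.03 in spleen, 0.58 in liver and 0.08 in brain. In liver both libraries numbered 1 had more erythroid signal than those numbered 2. The block brought Rpl35a to an adjusted p of 0.0213 in spleen and 0.0449 in liver by limma, and no other member passed with it. The cause was not tested. Of values for single genes, 1837 were alike, 116 moved, 7 passed only under another setting and 1 reversed. With 2 libraries per organ group, depth limits the members near 1 signal most. Adding copies was chosen after seeing the data.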

Other observations

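Tissue-restricted paralogs stayed low. Rpl10l had no read in any liver or brain library, which allows up to 0.194 signal in the shallowest, brain mutant 1, and Rpl3l at most 0.826 signal, in spleen mutant 1, with 0.697 in spleen mutant 2 and 0.552 and 0.537 in control spleens. Rpl39l, known from testis, was read in fibroblasts, at 11.1, 0.873 and 3.33 in mutants and 2.83, 2.24 and 4.99 in controls, a spread within mutants that exceeds the difference between genotypes. The snoRNA host Gas5, a noncoding TOP gene, had 52.0, 54.1 and 45.7 in mutant TTFs and 65.7, 64.0 and 73.0 in control TTFs (log2 fold change -0.41), with each mutant below each control, while 4 of the 6 tested noncoding TOP genes (Gas5 not among the 4) lay above 0 with a median of 0.05. Of the same 6 genes, 5 lay above 0 in liver (median 0.46), 0 in spleen (-0.28) and 2 in brain (-0.06). Neither limma nor DESeq2 called any of them in any tissue.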
